A study of Mus musculus with 6 samples.

Results

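The clustered protocadherins are the 58 gene symbols of the alpha, beta and gamma protocadherin clusters, out of 24786 gene symbols measured in Raw264.7 macrophages. They were chosen by name alone, as every symbol made of Pcdh, a cluster letter and an isoform number, which gave 14 alpha, 22 beta and 22 gamma members, the latter in an A group of 12, a B group of 7 and a C group of 3. Raw264.7 is a mouse macrophage line from a tumor induced by Abelson murine leukemia virus, for which the labels give the strain as C57BL/6 and the age as postnatal day 21. Both groups were infected with a lentivirus, which carried a negative-control hairpin in the control cells (sh-NC, genotype control, n = 3 libraries) and a hairpin against *Etv5*, an ETS-family transcription factor, in the knockdown cells (sh-*Etv5*, genotype *Etv5* knockdown, n = 3 libraries). The sources do not say which of the *Etv5* hairpins was sequenced or how long after infection RNA was taken. Whether replicate libraries stem from different infections is also not stated. The p-values therefore judge group differences against the spread between libraries, which may be technical.

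Clustered protocadherins are cell-surface adhesion proteins of the cadherin superfamily, best known from neurons, where each cell expresses its own set of isoforms and uses it to tell its own branches from those of other cells. Each alpha or gamma isoform has a variable exon with its own promoter, which is spliced to constant exons shared by the whole cluster and encoding a common cytoplasmic tail. Beta isoforms have a single exon each and no constant exons. Promoter choice is known to rest on CTCF and cohesin, which loop promoters to enhancers, and unused promoters are kept silent by DNA methylation and repressive chromatin.

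All 3 clusters lie on the plus strand of mouse chromosome 18 (GRCm38, GENCODE release M21). The alpha cluster spans 36930184 to 37187661, the beta cluster 37264938 to 37524479 and the gamma cluster 37661793 to 37841873. Of the 58 symbols, 57 were found in the annotation, and the exception was *Pcdha10*. A gamma transcript consists of a variable exon, which has 2568 bases in *Pcdhgc3*, and constant exons of 2119 bases in all. A read in the constant exons of gamma cannot be assigned to an isoform, and the alpha and gamma values are therefore not independent of each other within a cluster. Whether counting used strand is not given in the sources used here.

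Expression is given as RPKM, that is reads scaled to gene length and to the mapped reads of the library, as deposited by the authors. Per library, RPKM added up to 320462 to 322949 under sh-NC and 330454 to 340257 under sh-*Etv5*, and the number of reads is unknown. *Etv5* was 9.18, 9.89 and 9.39 RPKM under sh-NC against 5.19, 4.91 and 5.28 RPKM under sh-*Etv5*, so that the knockdown target was lower in every library labelled as knockdown. Groups were compared with limma on log2(RPKM + 1) over the 10738 genes that reached 1 RPKM in 3 or more libraries, and a gene was called where its p-value, adjusted over all these genes by Benjamini-Hochberg, fell below 0.05. Fold changes on this scale understate the change of genes with low RPKM.

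All 22 gamma symbols passed the filter on low values and were higher in sh-*Etv5* cells, whereas no alpha and no beta symbol reached that filter. Of all tested genes, 33.3% were called higher and 41.0% lower, 74.3% in either direction, and 34.3% had all sh-*Etv5* libraries above all sh-NC libraries, against 42.1% with all of them below. For *Pcdhga4*, which stands for most of the cluster, the libraries gave 4.49, 4.32 and 4.49 RPKM under sh-NC against 12.0, 11.7 and 10.5 RPKM under sh-*Etv5*. The groups did not overlap, and the mean rose from 4.43 ± 0.0981 to 11.4 ± 0.771 RPKM (SD, n = 3), a 2.58-fold difference (log2 fold change 1.19, standard error 0.0608, limma adjusted p = 1.46e-08). Only 4.46% of the tested genes had a larger rise than *Pcdhga4* on the log2 scale. In bulk RNA, a change in the number of expressing cells and a change in RNA per cell cannot be told apart.

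**Figure D1:**
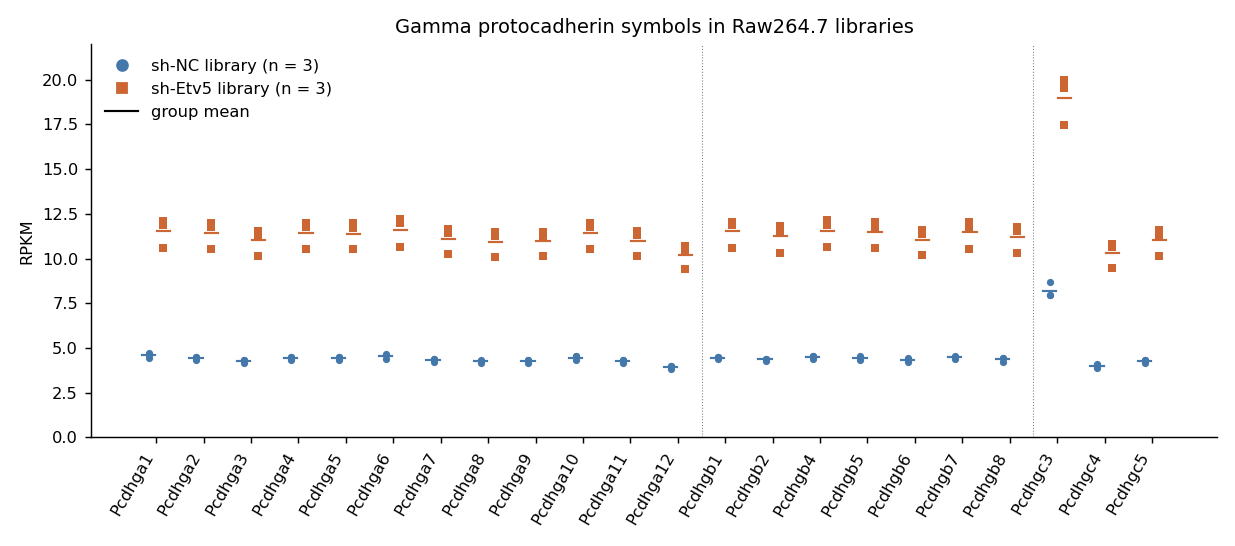
RPKM of the 22 gamma protocadherin symbols in each library, with sh-NC libraries as circles, sh-*Etv5* libraries as squares and short lines for group means (n = 3 libraries each), and dotted lines between the A, B and C groups. The 21 symbols other than *Pcdhgc3* sit between 3.85 and 4.72 RPKM in sh-NC and between 9.40 and 12.2 RPKM in sh-*Etv5*, and *Pcdhgc3* lies above them in both groups.

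*Pcdhgc3*, a C-type isoform, was the most abundant clustered protocadherin in every library. It was 7.94, 7.94 and 8.66 RPKM under sh-NC against 19.5, 20.0 and 17.5 RPKM under sh-*Etv5*. The groups did not overlap, and its mean rose from 8.18 ± 0.418 to 19.0 ± 1.34 RPKM (SD, n = 3), which is 2.32-fold (log2 fold change 1.12, standard error 0.0603, limma adjusted p = 2.21e-08). This was the smallest ratio of the cluster. The other 21 symbols rose by between 2.50-fold and 2.58-fold, with log2 fold changes of 1.16 to 1.19.

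The constant exons common to the A, B and C groups tie their fold changes together. Equal fold changes alone therefore do not show a change in the variable exons of a group. The median log2 fold change was 1.19 over the 12 A symbols, 1.19 over the 7 B symbols and 1.17 over the 3 C symbols. Among the A symbols, *Pcdhga6* had the highest mean RPKM in sh-*Etv5* cells at 11.6 ± 0.817 (SD, n = 3), and *Pcdhga12* had the lowest at 10.2 ± 0.694 (SD, n = 3). The highest mean among the B symbols was 11.6 ± 0.796 RPKM for *Pcdhgb4* (SD, n = 3), and *Pcdhgb8*, annotated as a polymorphic pseudogene, was at 11.2 ± 0.766 RPKM (SD, n = 3). The C symbols *Pcdhgc4* and *Pcdhgc5* had sh-*Etv5* means of 10.3 ± 0.710 and 11.0 ± 0.749 RPKM (SD, n = 3), close to the A and B symbols and below *Pcdhgc3*. The transcript of *Pcdhga12* is the longest of the cluster at 5080 bases, which divides the same constant-exon reads by a greater length.

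The gamma values moved together from library to library. Relative to *Pcdhga4* in the same library, each of the other 20 symbols apart from *Pcdhgc3* kept the same ratio across all 6 libraries to within 5%, and 14 of them to within 1%. The widest spread among these 20 was 4.89%, for *Pcdhga1*, whose ratio to *Pcdhga4* was 1.03 to 1.05 in the sh-NC libraries and 1.00 to 1.01 in the sh-*Etv5* libraries. The ratio of *Pcdhgc3* to *Pcdhga4* was 1.77, 1.84 and 1.93 in the sh-NC libraries and 1.63, 1.70 and 1.66 in the sh-*Etv5* libraries. With constant exons in common, the 22 calls count as few independent measurements. *Gm37013*, a gene model outside the rule whose exons overlap those of the gamma members, showed the same levels, 4.35 ± 0.0903 RPKM in sh-NC and 11.2 ± 0.765 RPKM in sh-*Etv5* (SD, n = 3).

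To separate the parts, each gamma value was multiplied by its transcript length, and the median over the 21 symbols other than *Pcdhgc3* was taken as the signal of the constant exons. In the 21 symbols this product stayed between 0.976 and 1.07 of that median in every library. The constant exons were 9.75, 9.46 and 9.74 RPKM under sh-NC against 26.0, 25.5 and 22.9 RPKM under sh-*Etv5*, a 2.57-fold difference of the means. What remained for the variable exon of *Pcdhgc3* was 6.44, 6.69 and 7.77 RPKM under sh-NC against 14.2, 15.4 and 13.0 RPKM under sh-*Etv5*, a 2.04-fold difference. Neither quantity overlapped between the groups (exact permutation test, two-sided, p = 0.1 for each and 0.1 after adjustment over 3 tests, the smallest p-value that 3 against 3 libraries can give).

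**Figure D2:**
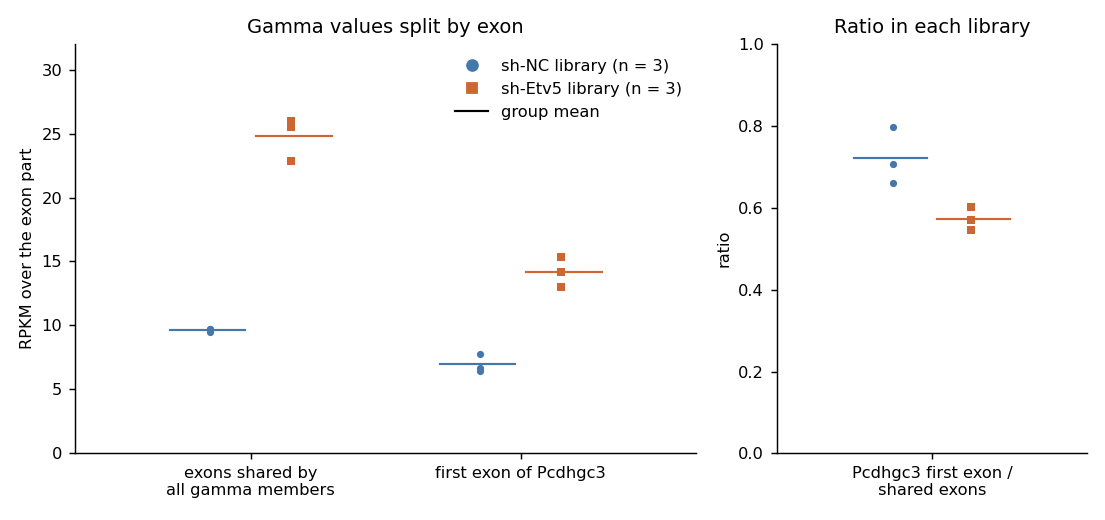
Left, RPKM over the constant exons shared by all gamma members and over the variable exon of *Pcdhgc3* (the first exon of its transcript) in each library, and right, the ratio of the latter to the former. Circles are sh-NC and squares sh-*Etv5* libraries, and lines are group means (n = 3 libraries each). Both parts are higher in the sh-*Etv5* libraries, and the ratio lies between 0.660 and 0.798 in sh-NC and between 0.546 and 0.603 in sh-*Etv5*.

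The variable exon of *Pcdhgc3* accounted for 46.6 ± 2.39% of that symbol's value in sh-NC and 40.9 ± 1.21% in sh-*Etv5* (SD, n = 3). Its ratio to the constant exons was 0.722 ± 0.0701 in sh-NC and 0.572 ± 0.0287 in sh-*Etv5* (SD, n = 3), with no overlap of the groups (exact permutation test, two-sided, p = 0.1, 0.1 after adjustment). Where the lowest of the 21 other symbols was taken to hold reads of the constant exons alone, the highest variable exon among the others reached 0.706 RPKM in the sh-NC libraries and 1.30 RPKM in the sh-*Etv5* libraries. These values rest on that assumption and on the annotated lengths, and are no bound. *BC037039*, an annotated transcript on the opposite strand, overlaps the variable exon of *Pcdhgc3*, and reads from it cannot be told apart from those of *Pcdhgc3* without strand. The exon parts were computed from the deposited gene values, and no coverage along the exons was analysed here.

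The alpha cluster was close to 0 in both groups. Each of its 14 symbols had a value above 0 in all 6 libraries and a highest value of at most 0.157 RPKM, and the groups overlapped for all 14. Leaving out *Pcdha8*, member means lay near 0.05 RPKM, as for *Pcdha3*, which was at 0.0513 ± 0.00776 RPKM in sh-NC and 0.0449 ± 0.0148 RPKM in sh-*Etv5* (SD, n = 3). Relative to *Pcdha1* in the same library, 10 of 12 alpha symbols other than *Pcdha8* kept their ratio across libraries to within 5%, while that of *Pcdha4* ranged from 0.979 to 1.18, that of *Pcdhac2* from 0.968 to 1.15 and that of *Pcdha8* from 1.60 to 3.58. The pairs *Pcdha6* with *Pcdha10* and *Pcdha11* with *Pcdha12* had equal values in all 6 libraries. *Pcdhac2*, a C-type alpha isoform, was at 0.0521 ± 0.00679 RPKM in sh-NC and 0.0433 ± 0.0143 RPKM in sh-*Etv5* (SD, n = 3). *Pcdha4* and *Pcdha5* had sh-*Etv5* means of 0.0470 ± 0.0150 and 0.0452 ± 0.0151 RPKM (SD, n = 3).

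*Pcdha8* stood above the other alpha symbols. It was 0.0739, 0.157 and 0.0743 RPKM under sh-NC against 0.109, 0.121 and 0.110 RPKM under sh-*Etv5*. sh-NC replicate 2 was the highest of all 6 libraries, so the groups overlapped. Fitted without the filter, it differed by 0.02 on the log2 scale (95% interval -0.06 to 0.10, limma adjusted p = 0.715). No alpha symbol was called in the fit with a pseudocount of 1, where 47.8% of 17831 genes were called in either direction, and the lowest limma adjusted p among the 14 was 0.484. A difference in the alpha cluster was not detectable at these values.

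Most beta symbols were at or near 0 as well. Of the 22 beta symbols, 7 were listed at 0 in all 6 libraries (*Pcdhb1*, *Pcdhb2*, *Pcdhb3*, *Pcdhb6*, *Pcdhb8*, *Pcdhb11* and *Pcdhb13*), 10 were listed at 0 in at least 1 library, and 5 were above 0 in all of them. The highest value of any beta symbol was 0.377 RPKM, for *Pcdhb22*. Each beta symbol is a gene of its own, so values of different members do not share reads by annotation, apart from the neighbors *Pcdhb21* and *Pcdhb22*, whose annotated ends overlap.

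**Figure D3:**
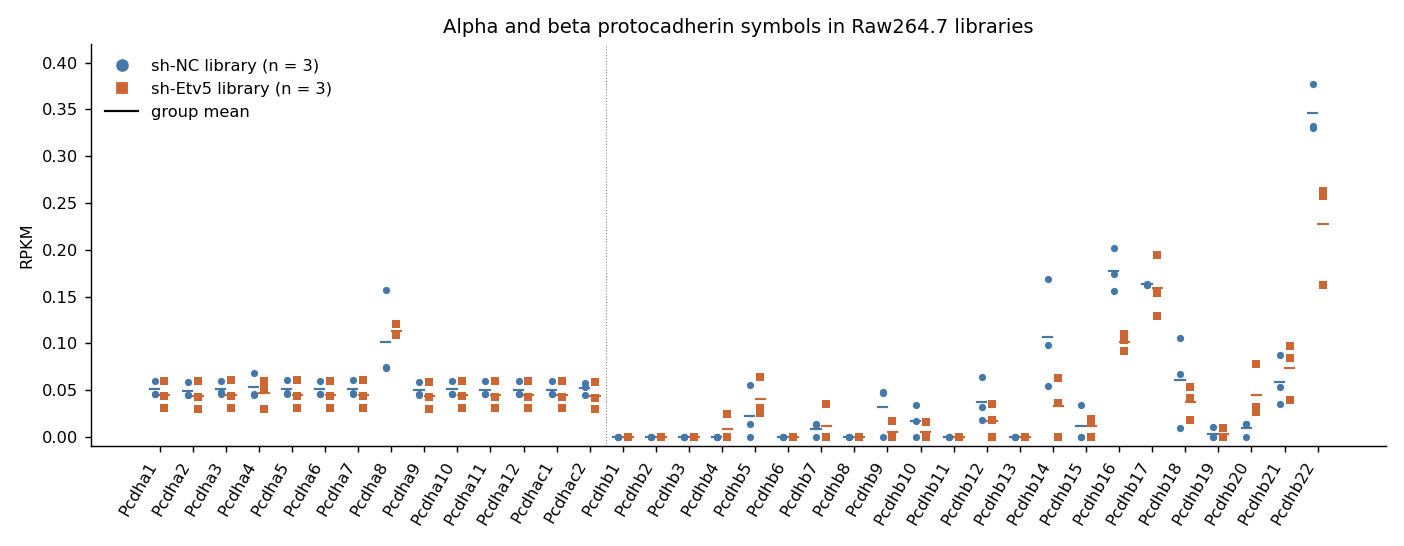
RPKM of the 14 alpha and 22 beta protocadherin symbols in each library, alpha left and beta right of the dotted line, with sh-NC libraries as circles, sh-*Etv5* libraries as squares and short lines for group means (n = 3 libraries each). All values are at most 0.377 RPKM, and *Pcdhb16* and *Pcdhb22* are the symbols whose sh-*Etv5* libraries all lie below the sh-NC libraries.

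*Pcdhb22* was 0.377, 0.330 and 0.332 RPKM under sh-NC against 0.257, 0.163 and 0.263 RPKM under sh-*Etv5*. *Pcdhb16* was 0.174, 0.156 and 0.202 RPKM under sh-NC against 0.110, 0.103 and 0.0919 RPKM under sh-*Etv5*. In both genes each sh-*Etv5* library lay below each sh-NC library, the opposite direction to gamma. Among all genes above 0, 28.0% showed such a separation with sh-*Etv5* lower and 27.3% with sh-*Etv5* higher. Without the filter, limma called both lower, *Pcdhb16* with a log2 fold change of -0.10 (adjusted p = 0.0066) and *Pcdhb22* with -0.13 (adjusted p = 0.0332), where 24.5% of the genes were called lower and 23.3% higher, and where 17.5% of the genes with a mean under 1 RPKM were called. These calls depended on the pseudocount, and with 0.01 in place of 1 *Pcdhb16* differed by -0.74 (limma adjusted p = 0.104) and *Pcdhb22* by -0.61 (limma adjusted p = 0.159) on the log2 scale, larger in size and not called.

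The remaining beta symbols gave no call. *Pcdhb17* was at 0.163 ± 0.000858 RPKM in sh-NC and 0.159 ± 0.0328 RPKM in sh-*Etv5* (SD, n = 3), a log2 difference without the filter of -0.01 (95% interval -0.06 to 0.05, limma adjusted p = 0.879). The narrow interval comes with the pseudocount of 1, and with 0.01 in its place it ran from -0.83 to 0.73. *Pcdhb14* was 0.0984, 0.169 and 0.0548 RPKM under sh-NC against 0.0361, 0 and 0.0627 RPKM under sh-*Etv5*, which overlapped (limma without the filter, adjusted p = 0.121). *Pcdhb20*, named after its values were seen, was the only beta symbol with all sh-*Etv5* libraries above all sh-NC libraries, at no more than 0.0143 RPKM in sh-NC and no less than 0.0267 RPKM in sh-*Etv5* (limma without the filter, adjusted p = 0.106).

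Summed over members, alpha reached 0.763 ± 0.154 RPKM in sh-NC and 0.695 ± 0.191 RPKM in sh-*Etv5* (SD, n = 3), and beta reached 1.06 ± 0.111 and 0.782 ± 0.0908 RPKM (SD, n = 3). The gamma sum was 99.7 ± 2.32 RPKM in sh-NC and 254 ± 17.4 RPKM in sh-*Etv5* (SD, n = 3), but it counts the constant exons once for each symbol. No test was run on these sums, since the set, though its members were matched by name, was chosen with results of these data known. The constant exons of gamma alone, at 9.65 ± 0.167 RPKM in sh-NC and 24.8 ± 1.69 RPKM in sh-*Etv5* (SD, n = 3), were above the alpha and beta sums in every library.

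Outside the clusters, 21 single protocadherins and related large cadherins were read for comparison, and 2 of them passed the filter. *Pcdh7*, a protocadherin encoded by a gene of its own, was 20.9, 21.1 and 21.7 RPKM under sh-NC against 33.4, 35.6 and 32.5 RPKM under sh-*Etv5*. It rose (log2 fold change 0.65, limma adjusted p = 1.67e-07), and its RPKM level was above that of *Pcdhgc3* in every library. *Fat1*, a giant cadherin, fell from 5.92 ± 0.205 to 2.60 ± 0.120 RPKM (SD, n = 3, log2 fold change -0.94, limma adjusted p = 1.37e-07). Below the filter, *Celsr3*, a cadherin of planar cell polarity, gave 0.0243, 0.0408 and 0.0262 RPKM under sh-NC against 0.604, 0.667 and 0.511 RPKM under sh-*Etv5*, with no overlap (limma without the filter, log2 fold change 0.63, adjusted p = 8.3e-05). That fit also called *Celsr1* (0.0351 ± 0.00549 to 0.142 ± 0.0335 RPKM, SD, n = 3, adjusted p = 0.00365) and *Fat3* (at most 0.0319 RPKM, adjusted p = 0.0142) higher and *Dchs1* (0.203 ± 0.0153 to 0.117 ± 0.0230 RPKM, SD, n = 3, adjusted p = 0.00631) lower, where 23.3% of genes were called higher and 24.5% lower. These 4 genes were named after their values were seen. With a pseudocount of 0.01 in place of 1, *Dchs1* was not called (limma without the filter, adjusted p = 0.101), while *Celsr3*, *Celsr1* and *Fat3* kept their calls. Of all 19 genes below the filter, 7 were listed at 0 in all libraries, and *Pcdh1* and *Pcdh12*, which lie beyond the gamma cluster on the same chromosome, did not exceed 0.0373 RPKM.

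Genes around the clusters changed in both directions. Of 26 neighbors on chromosome 18, 20 were tested, 10 were called higher (50.0%, beside 33.3% of all tested genes), 6 lower (30.0%, beside 41.0%) and 4 were not called. Their log2 fold changes lay between -0.73 and 0.47, below the 1.12 to 1.19 of gamma, with a median of 0.11 beside -0.05 over all tested genes. *Diaph1*, which encodes a formin that nucleates actin filaments, ends 1.73 kb beyond the gamma cluster on the opposite strand. It was 20.2, 19.3 and 19.0 RPKM under sh-NC against 24.7, 25.1 and 24.0 RPKM under sh-*Etv5* (log2 fold change 0.32, limma adjusted p = 4.08e-05). All sh-*Etv5* libraries lay above the sh-NC libraries, but the difference was 1.26-fold.

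Between the beta and gamma clusters, *Taf7*, a subunit of the general transcription factor TFIID, fell from 2.42 ± 0.182 to 1.41 ± 0.310 RPKM (SD, n = 3, log2 fold change -0.51, limma adjusted p = 0.000815). *Slc25a2*, a mitochondrial carrier next to it, was at most 0.135 RPKM. Before the alpha cluster, *Zmat2*, a component of the spliceosome, fell from 30.8 ± 0.622 to 26.1 ± 0.692 RPKM (SD, n = 3, log2 fold change -0.23, limma adjusted p = 0.000289). *Cd14*, the co-receptor for lipopolysaccharide, also lies before the alpha cluster and rose by 0.25 on the log2 scale (limma adjusted p = 4.58e-05). Among the 20 neighbors past the filter, the largest log2 fold changes were those of *Slc35a4* (-0.73), *Taf7*, *Rnf14* (0.47), *Hars2* (-0.40) and *Gnpda1* (0.39), each called by limma.

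Of the 6 neighbors below the filter, *Rell2* and *Spry4*, named after their values were seen, had all sh-*Etv5* libraries above all sh-NC libraries. Among all genes above 0, 27.3% showed such a separation, and 23.3% were called higher by limma without the filter. *Rell2*, a TNF receptor-related membrane protein gene that starts 113 kb beyond the gamma cluster, gave 0.463, 0.518 and 0.345 RPKM under sh-NC against 0.734, 1.11 and 0.993 RPKM under sh-*Etv5*, a 2.14-fold difference (limma without the filter, log2 fold change 0.43, adjusted p = 0.00995). *Spry4*, an inhibitor of receptor tyrosine kinase signaling that lies 744 kb beyond the cluster, gave 0.137, 0.168 and 0.211 RPKM under sh-NC against 0.758, 0.922 and 0.667 RPKM under sh-*Etv5*, a 4.55-fold difference (limma without the filter, log2 fold change 0.60, adjusted p = 0.000522). As ratios of means these stand beside the 2.32 to 2.58 of gamma, at a lower RPKM level. The groups overlapped for the other 4.

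**Figure D4:**
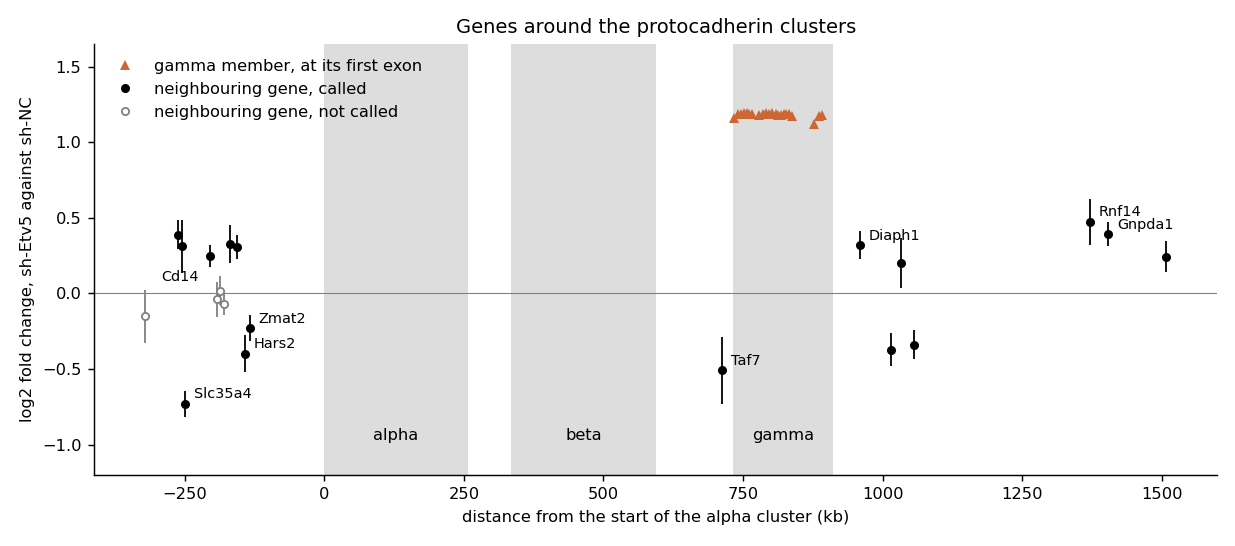
Log2 fold change (sh-*Etv5* against sh-NC, limma, 3 libraries each) of gamma protocadherin symbols (triangles, placed at their variable exons) and of the 20 tested neighboring genes (circles, open where not called, with 95% confidence intervals), plotted against the distance in kb from the start of the alpha cluster. Gray bands mark the alpha, beta and gamma clusters, and the plotted neighbors lie below the gamma symbols, at 0.47 or less, with those below the filter not plotted.

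Regulators of clustered protocadherin promoters were lower in sh-*Etv5* cells in most cases. Of a list of 26, 25 were tested, 20 were called lower, 2 higher and 3 were not called, which is 80.0% lower, beside 41.0% of all tested genes. The median log2 fold change was -0.49, beside -0.05 over all tested genes. No test of the list as a whole was run. *Ctcf*, the architectural DNA-binding protein that occupies protocadherin promoters, was 31.7, 32.4 and 31.7 RPKM under sh-NC against 16.1, 16.3 and 16.8 RPKM under sh-*Etv5* (log2 fold change -0.92, limma adjusted p = 3.61e-09). The groups lay far apart relative to their spread.

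All 5 core cohesin genes in the list (*Rad21*, *Smc1a*, *Smc3*, *Stag1* and *Stag2*) fell, with log2 fold changes of -1.05 to -0.42. Of all tested genes, 41.0% were called lower, and no test of so small a subgroup was run. *Rad21*, the kleisin subunit that closes the cohesin ring, was 75.2, 75.6 and 76.1 RPKM under sh-NC against 36.1, 36.0 and 36.1 RPKM under sh-*Etv5* (limma adjusted p = 2.98e-10). Both genes of the cohesin loader, *Nipbl* and *Mau2*, fell by less, to -0.22 and -0.25 on the log2 scale. *Wapl*, which releases cohesin from DNA, was at 24.5 ± 0.511 RPKM in sh-NC and 24.9 ± 1.13 RPKM in sh-*Etv5* (SD, n = 3, log2 fold change 0.02, limma adjusted p = 0.646).

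All 4 genes that write or maintain DNA methylation in the list fell, beside 41.0% of all tested genes called lower. *Dnmt3a*, a de novo methyltransferase, was 21.2, 20.7 and 21.5 RPKM under sh-NC against 9.58, 10.4 and 8.98 RPKM under sh-*Etv5* (log2 fold change -1.06, limma adjusted p = 1.76e-08). *Dnmt1*, the maintenance methyltransferase, and *Uhrf1*, which recruits it to replicated DNA, fell by log2 fold changes of -0.90 and -1.02, and *Dnmt3b*, which had a mean of 1.16 RPKM in sh-NC, fell by -0.49. *Trim28*, a corepressor of KRAB zinc finger proteins, fell from 137 ± 3.24 to 68.9 ± 3.21 RPKM (SD, n = 3, log2 fold change -0.98, limma adjusted p = 2.35e-09). *Smchd1*, a chromatin protein known to repress protocadherin clusters, fell by -0.71.

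The regulators that rose were *Tet2* and *Lrif1*, named after their values were seen. *Tet2*, which oxidizes methylated cytosine, rose from 2.85 ± 0.117 to 6.19 ± 0.390 RPKM (SD, n = 3, log2 fold change 0.90, limma adjusted p = 2.8e-07), and *Lrif1*, a partner of *Smchd1*, rose by 0.30 on the log2 scale (limma adjusted p = 0.0045). *Tet1* was below the filter, with a highest value of 0.00949 RPKM. *Tet3*, of the same family and also named after its values were seen, was called lower (log2 fold change -0.29, limma adjusted p = 0.00132). At 8.81 ± 0.181 RPKM in sh-NC (SD, n = 3) it lay above *Tet2*, and it did so in sh-*Etv5* as well by group mean. *Rest*, a repressor of neuronal genes, and *Zfp143*, a looping factor, were not called, with log2 fold changes of 0.01 and -0.03. RNA levels of these genes do not measure methylation or looping at the clusters, and no such measurement was analysed here.

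**Figure D5:**
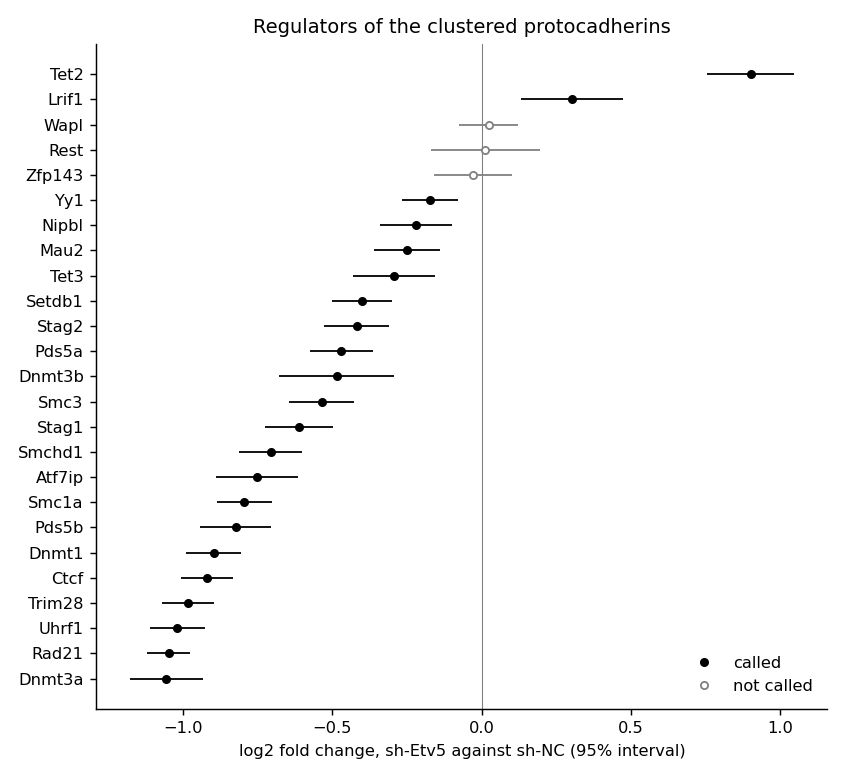
Log2 fold change (sh-*Etv5* against sh-NC, limma, 3 libraries each) with 95% confidence intervals for the 25 tested regulators, ordered by value, with filled circles for called genes and open circles for genes not called. The values run from -1.06 for *Dnmt3a* to 0.90 for *Tet2*, and 20 of the called genes lie left of 0.

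Genes that act on the protocadherin tail or cleave it moved in both directions. Of 23 in the list, 18 were tested, 8 were called higher (44.4%, beside 33.3% of all tested genes) and 10 lower (55.6%, beside 41.0%), so that all 18 were called, beside 74.3% of all tested genes. The median log2 fold change was -0.17. Among the 7 tested genes of the WAVE complex, which drives branched actin and binds protocadherin tails, 4 rose and 3 fell. *Cyfip2* rose from 0.683 ± 0.0216 to 2.80 ± 0.102 RPKM (SD, n = 3, log2 fold change 1.17, limma adjusted p = 7.89e-08), and *Nckap1l* and *Abi1* rose by log2 fold changes of 0.53 and 0.57. *Adam10*, the protease that sheds protocadherin ectodomains, fell from 47.5 ± 1.34 to 29.0 ± 1.32 RPKM (SD, n = 3, log2 fold change -0.69, limma adjusted p = 7.88e-08). *Psen2*, a catalytic subunit of gamma-secretase, rose from 11.2 ± 0.783 to 23.9 ± 0.450 RPKM (SD, n = 3, log2 fold change 1.03, limma adjusted p = 1.67e-08).

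Because clustered protocadherins are best known from neurons, markers of other cell types were read beside them. Of the 10 macrophage markers, 9 passed the filter, among them *Lyz2*, *Csf1r* and *Cd68*, and *Mertk* was the exception at no more than 0.0653 RPKM. Among the 9, 4 were called higher (*Adgre1*, *Itgam*, *Spi1* and *Cd14*, 44.4%, beside 33.3% of all tested genes). Another 4 were called lower (*Csf1r*, *Cd68*, *Lyz2* and *Fcgr1*, 44.4%, beside 41.0%), and *Ptprc* was not called. None of the 10 neuronal, 8 fibroblast and 6 epithelial markers passed, and *Snap25*, *Syt1*, *Stmn2* and *Nefl* were listed at 0 in all libraries. The neuronal markers summed to between 0.231 and 0.517 RPKM in sh-NC and between 1.03 and 1.59 RPKM in sh-*Etv5*, with *Syp* the highest at 0.836 RPKM. *Syp* and *Tubb3*, the latter named after its values were seen, had all sh-*Etv5* libraries above all sh-NC libraries, as did 27.3% of all genes above 0. *Syp* was at most 0.463 RPKM in sh-NC and at least 0.651 RPKM in sh-*Etv5*. *Tubb3* was listed at 0 in the sh-NC libraries and gave 0.579, 0.262 and 0.554 RPKM under sh-*Etv5*. The other neuronal markers overlapped between the groups or were at 0. The fibroblast markers summed to between 0.0326 and 0.0789 RPKM in sh-NC. In sh-*Etv5* they summed to between 0.839 and 1.11 RPKM, mostly from *Lum*, which was listed at 0 in the sh-NC libraries. *Lum*, *Dcn* and *Col1a1*, named after their values were seen, had all sh-*Etv5* libraries above all sh-NC libraries. *Dcn* did not exceed 0.128 RPKM and *Col1a1* did not exceed 0.0621 RPKM. The remaining fibroblast markers overlapped between the groups or, as *Col1a2*, were at 0 in all libraries. Of the 7 glial markers only *Mbp* passed, and it fell (log2 fold change -1.04). The glial sum, mostly from *Mbp*, was 17.9 to 18.8 RPKM in sh-NC and 8.42 to 8.83 RPKM in sh-*Etv5*. *Gfap*, named after its values were seen, went the other way. It gave 0.0474, 0.0174 and 0.0238 RPKM under sh-NC against 0.104, 0.0910 and 0.187 RPKM under sh-*Etv5* (limma without the filter, adjusted p = 0.0285). The remaining glial markers overlapped between the groups or were at 0. Epithelial markers summed to at most 0.0234 RPKM. The neuronal, fibroblast and epithelial sums stayed below the value of every gamma symbol in the same library. The glial sum lay above every gamma symbol in the sh-NC libraries and below every gamma symbol in the sh-*Etv5* libraries. The part of other cell types in the rise of gamma was not tested.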

How the data were processed

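Polyadenylated RNA of Raw264.7 cells was sequenced in 3 sh-NC and 3 sh-*Etv5* libraries (Illumina TruSeq RNA kit). The authors deposited RPKM values from coverage tracks, 1 per gene symbol and library, without log transformation. The submitters' processing notes name mm10, while the aligner, annotation and strand setting are not given in the sources used here. Groups came from the sample titles.

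Genes that reached 1 RPKM in 3 or more libraries entered the fit on log2(RPKM + 1), made by limma 3.58.1 under R 4.3.3 (moderated with a trend, two-sided, no covariate, adjusted p under 0.05), the package named in the study's methods. On simulated data for 10738 genes, 89 of 100 changes of 0.5 and 94 of 100 changes of 1 (log2) were called, with 5 unchanged genes. No other genes were changed there and the spread was drawn independently, whereas 74.3% of the tested genes were called in these data. The simulated counts therefore need not hold for these data. Members were matched by name, but the set and the lists were chosen with earlier results of these data known, and support nothing independently. Genes named by rule were all tested members, the 3 highest and 3 most changed of each group, the 5 most changed of each other list, the nearest neighbors and *Etv5*. Other list genes and markers were named outside that rule with their values known, among them *Smchd1*, *Dnmt1*, *Dnmt3b*, *Nipbl*, *Mau2*, *Wapl*, *Rest*, *Zfp143*, *Tet1* and *Lum*. Exon lengths came from GENCODE M21 (Python 3.11.15, pandas 2.3.3, SciPy 1.17.1). The replicate numbers did not pair the libraries. Alternatives were other pseudocounts, filters, scalings and thresholds, no trend, a replicate block, untransformed RPKM and each library left out.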

Additional observations from a re-analysis of the deposited data

How the results depend on the processing

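Of 924 recomputed values, 910 kept their direction and their call or size, 9 lost their call, 5 counts moved by over 1.5 times and 0 reversed. The gamma symbols were called higher in all 396 of their values, with log2 fold changes of 1.06 to 1.36 on the log scales. Under a replicate block, the counts of called genes were the same (22 clustered protocadherins, 22 regulators, 16 neighbors, 18 partners, 2 other cadherins), *Etv5* had a limma adjusted p of 1.01e-05, and no call changed. Same-numbered libraries did not deviate together (correlations 0.0739, -0.071 and -0.0352). A minimum log2 fold change of 0.5 left 13 regulators (1 higher, 12 lower), 7 partners and 2 neighbors, because small changes drop out by construction. Among the other cadherins, 6 genes were called without a filter and 1 with a mean RPKM of at least 5. The pseudocounts of 0.1 and 0.01 without a filter, and the split of gamma by exon with its alternatives, were chosen after the data were seen. With 0.1, *Pcdhb16* kept its call (limma adjusted p = 0.0153) and *Pcdhb22* lost it (0.0777). The 2.04-fold difference of the *Pcdhgc3* variable exon was 2.01 with *Pcdhga4* alone as reference and 2.04 with RefSeq lengths. Depth is unknown and alpha and beta values are near 0, so small differences there could not be detected.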
